A study of Mus musculus with 23 samples.

Results

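Tuft cells are rare chemosensory cells of the intestinal epithelium, and 8 of their genes were followed here in the colon of mice with *Apc*-driven tumors: *Dclk1*, *Trpm5*, *Il25*, *Pou2f3*, *Avil*, *Gfi1b*, *Sh2d6* and *Alox5*. The genes were taken by symbol from the deposited table, where all 8 of 55450 genes were present. RNA came from the colon of male C57BL/6 Cdx2Apcf/w mice, 6 to 8 weeks old when treatment began, in which Cre under the *Cdx2* promoter deletes a single floxed *Apc* allele in the intestinal epithelium. All mice received a high-fat diet (HFD) with 60% fat and antibiotics before colonization with *B. fragilis*, so that no group was untreated or uncolonized. BF BSHlow (BF638R bsh-) carried an empty vector, and BF BSHhigh (BF638R bsh+) carried a *bsh* gene, which encodes the bile salt hydrolase that frees bile acids from glycine or taurine. There were 4 libraries each of BSHlow and BSHhigh normal colon after 2 weeks, 4 each of BSHlow and BSHhigh non-tumor tissue after 12 weeks, 4 of BSHlow tumors and 3 of BSHhigh tumors. The columns of the 3 BSHhigh tumors carried repeated names of BSHlow tumors and were assigned as a group through the supplementary data of the study, so they are called replicates a, b and c.

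Tuft cells taste the gut lumen much as taste cells do: a receptor acts through a G protein, PLCB2 and a calcium rise to open the cation channel TRPM5. The transcription factor POU2F3 is required for the lineage, and GFI1B is a zinc-finger repressor found in tuft cells and in erythroid and megakaryocytic cells. IL-25 is the cytokine by which tuft cells alert group 2 innate lymphoid cells, whose IL-13 in turn expands tuft and goblet cells. ALOX5 (5-lipoxygenase) makes leukotrienes in tuft cells and in leukocytes, DCLK1 is a microtubule-associated kinase used as a tuft cell marker, and AVIL (advillin) is an actin-binding protein of the villin family. SH2D6 is named for its SH2 domain and is listed among tuft cell markers.

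In these tissues 7 of the 8 genes were at their highest mean level in normal colon after 2 weeks and lower in non-tumor tissue after 12 weeks. *Avil* departed from the others in tumors, where it reached 109.97 to 226 CPM (counts relative to the TMM-scaled library total) while *Trpm5* stood at 0.308 to 2.35 CPM. No tuft cell gene passed the test between BF BSHhigh and BF BSHlow in any tissue. A gene was called changed when edgeR's quasi-likelihood test gave a Benjamini-Hochberg adjusted p under 0.05 over all genes tested and an absolute log2 fold change over 1. Per kilobase of exon, the mean level in BSHlow normal colon after 2 weeks was highest for *Sh2d6* (8.57 CPM per kb), then *Trpm5* (4.78) and *Avil* (3.96), and lowest for *Gfi1b* (0.427) and *Il25* (0.360). Since these are bulk tissues, fewer tuft cells and less RNA per tuft cell cannot be told apart.

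On GRCm38 the genes lie on 8 separate stretches, *Dclk1* at chr3:55242364-55539068, *Trpm5* at chr7:143069153-143094642, *Il25* at chr14:54932695-54935837, *Pou2f3* at chr9:43123939-43210369, *Avil* at chr10:127000709-127020994, *Gfi1b* at chr2:28609450-28621982, *Sh2d6* at chr6:72513641-72521707 and *Alox5* at chr6:116410077-116461178. The promoter windows of *Avil* and *Trpm5* are shown because these genes went opposite ways in tumors. RefSeq windows on GRCm38.p6 matched 6 of the 8 genes, and *Il25* and *Pou2f3* had no entry. Each sequence below is the 250 bases before the annotated start, 5′ to 3′ on the strand of the gene, for *Avil* at chr10:127000459-127000708 (plus strand) and for *Trpm5* at chr7:143094643-143094892 (minus strand). Capitals mark ATGCAAA on either strand, a 7-letter part of the POU octamer that was looked for after the *Avil* window had been read.
Avil: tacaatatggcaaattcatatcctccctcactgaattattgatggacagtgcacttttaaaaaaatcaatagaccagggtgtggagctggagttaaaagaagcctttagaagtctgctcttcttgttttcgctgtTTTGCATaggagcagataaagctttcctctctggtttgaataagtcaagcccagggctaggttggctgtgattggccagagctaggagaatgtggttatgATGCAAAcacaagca
Trpm5: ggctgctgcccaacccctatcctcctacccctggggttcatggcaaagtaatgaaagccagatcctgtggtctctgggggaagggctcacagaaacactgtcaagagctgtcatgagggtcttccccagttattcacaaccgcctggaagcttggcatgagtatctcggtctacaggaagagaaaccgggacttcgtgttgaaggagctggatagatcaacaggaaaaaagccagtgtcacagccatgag
The *Avil* window held 2 copies, 115 and 15 bases before the start, and the other 6 windows, among them 2 of *Dclk1*, held none. Of all 32851 windows, 4.12% held at least 1 copy and 0.247% held 2 or more. The whole octamer ATGCAAAT (1.74% of all windows with the 50 bases after the start included), its looser form ATGCNAAT, which contains it (3.15%), and TATAAA (13.6%), each on both strands, were in none of the 7 windows. *Avil* had 42.0% G and C and 1 CpG in its window, against 52.8% and 4 CpGs for *Trpm5*.

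Epithelium was present in every library: the 8 epithelial genes *Epcam*, *Cdh1*, *Krt8*, *Krt18*, *Krt19*, *Cldn7*, *Cdx2* and *Vil1* took 0.611% to 1.56% of all counts. Markers of other cell types differed between groups. The summed level of 8 smooth muscle genes was between 8.36 and 214 CPM in normal colon after 2 weeks, between 1582 and 8831 CPM in non-tumor tissue after 12 weeks and between 131 and 370 CPM in tumors. The mean level of *Cdx2*, a homeobox gene of intestinal epithelium, was 345 and 374 CPM (BSHlow and BSHhigh) after 2 weeks, 14 and 27 CPM in non-tumor tissue, and 0.933 and 11.1 CPM in tumors. These differences move with the tissue comparisons below, and their part in the results was not tested.

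*Trpm5*, the channel, fell at both steps, from 2 to 12 weeks and from non-tumor tissue to tumor. In normal colon after 2 weeks it stood at 32.7, 38.7, 24.4 and 26.5 CPM with BSHlow and at 42.1, 25.8, 27.2 and 36.5 CPM with BSHhigh. In non-tumor tissue after 12 weeks it stood at 5.34, 3.15, 2.80 and 8.33 CPM with BSHlow and at 5.56, 6.6, 4.67 and 5.01 CPM with BSHhigh. In tumors it stood at 0.442, 0.308, 1.05 and 2.35 CPM with BSHlow and at 1.09, 1.16 and 1.0 CPM with BSHhigh. The libraries of the 3 tissues did not overlap within BSHlow or within BSHhigh, and BSHlow and BSHhigh overlapped in each tissue. Between 2 and 12 weeks *Trpm5* fell by 2.65 ± 0.29 (SE) on the log2 scale with BSHlow (adjusted p = 5.05e-06) and by 2.58 ± 0.29 with BSHhigh (adjusted p = 6.50e-06). From non-tumor tissue to tumor it fell by a further 2.25 ± 0.52 with BSHlow (adjusted p = 0.00164) and by 2.33 ± 0.58 with BSHhigh (adjusted p = 0.00350). Single libraries moved the BSHlow tumor value both ways. Without BSHlow tumor replicate 4 the log2 fold change was -3.04 (adjusted p = 9.07e-05). Without BSHlow non-tumor replicate 4 it was -1.85 (adjusted p = 0.00637). With all libraries and counts scaled to the 8 epithelial genes it was -1.32 (adjusted p = 0.0536), short of the threshold. *Tssc4*, which shares 220 exonic bases with *Trpm5* on the opposite strand, had log2 fold changes of 0.96 ± 0.11 and 0.88 ± 0.12 in BSHlow and BSHhigh tumors. The adjusted p was 5.35e-06 and 3.83e-05, within the fold limit of the call. Its part in the *Trpm5* counts was not tested.

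**Figure D1:**
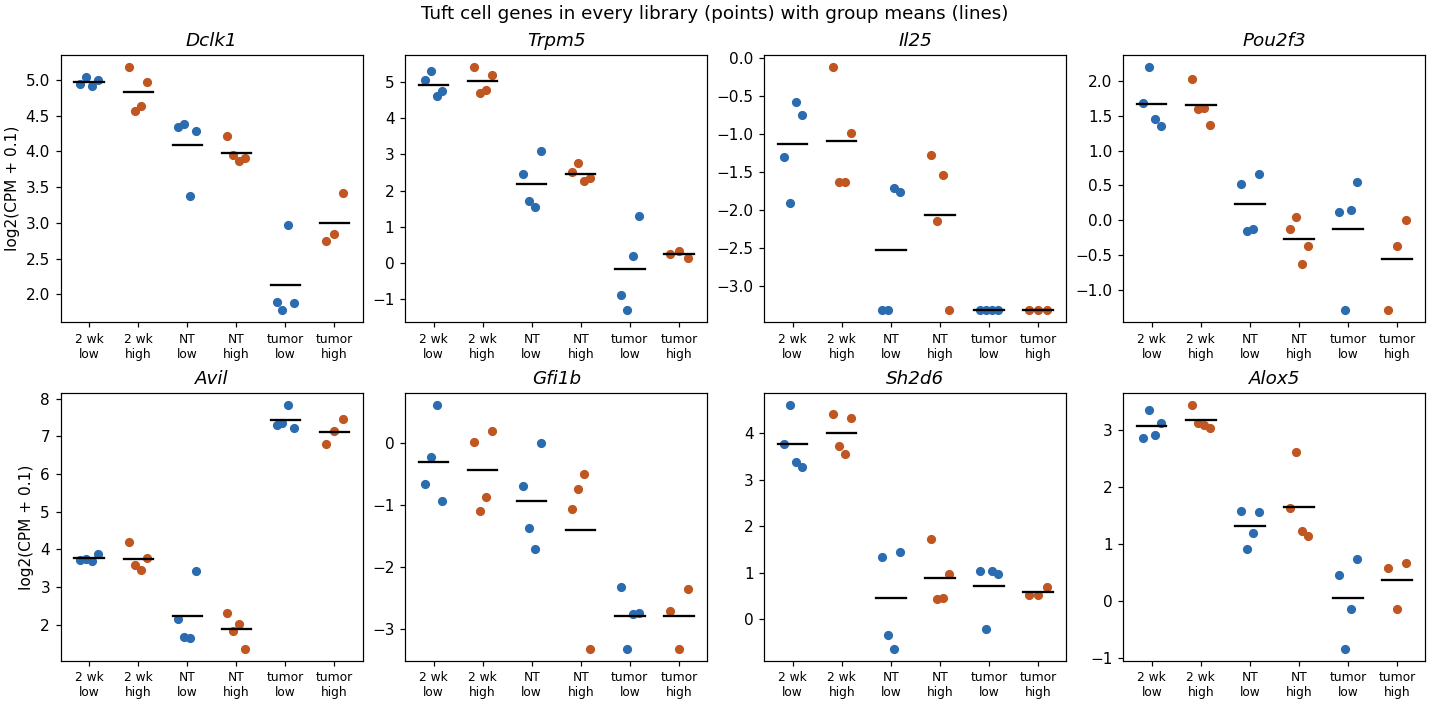
Level of each tuft cell gene in every library as log2(CPM + 0.1), with blue points for BF BSHlow, orange points for BF BSHhigh and a line at the group mean. NT is 12-week non-tumor tissue and 2 wk is normal colon. *Avil* rises to the right in tumors (109.97 to 226 CPM), where *Trpm5* is at 0.308 to 2.35 CPM and *Il25* is at 0 in all 7 libraries.

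*Dclk1* followed the same order of tissues with smaller steps. Its mean was 31.4 ± 1.26 (SD, n = 4) and 28.9 ± 5.90 CPM (n = 4) after 2 weeks with BSHlow and BSHhigh. In non-tumor tissue the libraries held 20.1, 20.7, 10.3 and 19.4 CPM with BSHlow and 18.5, 15.3, 14.5 and 14.9 CPM with BSHhigh. In tumors they held 3.63, 3.34, 7.78 and 3.57 CPM with BSHlow and 6.62, 7.06 and 10.6 CPM with BSHhigh. Each tumor library was below each non-tumor library of the same colonization. *Dclk1* fell by 1.96 ± 0.29 on the log2 scale in BSHlow tumors (adjusted p = 4.12e-05), whereas the log2 fold change in BSHhigh tumors was -0.97 ± 0.31 (adjusted p = 0.0154), within the fold limit of the call. That call depended on single libraries: without BSHhigh non-tumor replicate 3, non-tumor replicate 4 or tumor replicate c the log2 fold change was -1.011, -1.001 or -1.211, and each of these was called. With epithelial scaling it was -0.31 (adjusted p = 0.450). The tissue effects differed by 0.99 on the log2 scale between BSHhigh and BSHlow (95% interval 0.10 to 1.88, unadjusted p = 0.0313, adjusted p = 0.433), so a difference of the effects did not pass the correction. From 2 to 12 weeks the log2 fold changes were -0.84 ± 0.19 with BSHlow (adjusted p = 0.00177) and -0.86 ± 0.19 with BSHhigh (adjusted p = 0.00146), again within the fold limit.

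Of the 6 followed genes tested in tumors, only *Avil* was called higher. In non-tumor tissue it stood at 4.30, 3.09, 3.0 and 10.6 CPM with BSHlow and at 4.88, 3.42, 3.94 and 2.47 CPM with BSHhigh. In tumors it stood at 159, 163, 226 and 148 CPM with BSHlow and at 109.97, 140.3 and 175 CPM with BSHhigh. The tissues did not overlap, and the highest non-tumor library was BSHlow replicate 4. *Avil* rose by 5.02 ± 0.38 on the log2 scale with BSHlow (adjusted p = 8.33e-08) and by 5.25 ± 0.40 with BSHhigh (adjusted p = 3.10e-07), that is 33.2- and 38.5-fold between mean CPM. Without BSHlow non-tumor replicate 4 the BSHlow value was 5.65 (adjusted p = 1.98e-08). Among the 16454 genes tested, *Avil* ranked 268th from the highest log2 fold change with BSHlow and 236th with BSHhigh. *Tsfm*, which shares 165 exonic bases with *Avil* on the opposite strand, had log2 fold changes of 0.24 ± 0.13 and 0.30 ± 0.14 (adjusted p = 0.102 and 0.0708).

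Outside tumors *Avil* was, like *Trpm5*, lower after 12 weeks. After 2 weeks it was between 12.7 and 14.6 CPM with BSHlow and between 10.8 and 18.3 CPM with BSHhigh, above each 12-week non-tumor library of the same colonization. It fell by 1.36 ± 0.34 on the log2 scale with BSHlow (adjusted p = 0.00384) and by 1.88 ± 0.35 with BSHhigh (adjusted p = 0.000432). Without BSHlow non-tumor replicate 4 the BSHlow value was -1.97 (adjusted p = 1.48e-05). The level per exon length of *Avil* was 0.649 to 1.04 times that of *Trpm5* in normal colon after 2 weeks and 0.927 to 2.39 times in non-tumor tissue. In tumors it was 119 to 998 times that of *Trpm5*, with no overlap with the other tissues.

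*Pou2f3* and *Sh2d6* were lower after 12 weeks but did not pass the test between tumor and non-tumor tissue. *Pou2f3* stood at 3.11, 4.50, 2.65 and 2.46 CPM with BSHlow and at 4.0, 2.95, 2.97 and 2.48 CPM with BSHhigh after 2 weeks, and at 0.546 to 1.48 CPM in the 8 non-tumor libraries. It fell by 1.52 ± 0.30 on the log2 scale with BSHlow (adjusted p = 0.000632) and by 2.04 ± 0.31 with BSHhigh (adjusted p = 7.63e-05). In tumors it stood at 0.308 to 1.37 CPM, within reach of non-tumor tissue, with log2 fold changes of -0.29 (95% interval -1.23 to 0.65) with BSHlow and -0.24 (-1.29 to 0.82) with BSHhigh. These values changed sign in some alternatives, between -0.56 and 0.60 with BSHlow and between -0.59 and 0.45 with BSHhigh. The tumor libraries held 6 to 28 counts of *Pou2f3*, and the 95% intervals leave room for changes of either sign. What set the width of the intervals was not tested.

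*Sh2d6* showed the largest drop from 2 to 12 weeks among the 8 genes. It was at 13.7, 24.2, 10.4 and 9.64 CPM with BSHlow and at 21.4, 13.3, 11.7 and 20.1 CPM with BSHhigh after 2 weeks. It was at 2.45, 0.687, 0.545 and 2.65 CPM with BSHlow and at 3.19, 1.25, 1.27 and 1.87 CPM with BSHhigh in non-tumor tissue, so that the time points did not overlap. It fell by 3.20 ± 0.49 on the log2 scale with BSHlow (adjusted p = 8.01e-05) and by 3.12 ± 0.48 with BSHhigh (adjusted p = 8.99e-05). Tumors held 0.770 to 1.96 CPM, inside the non-tumor range, with log2 fold changes of 0.04 (95% interval -1.05 to 1.12) and -0.43 (-1.61 to 0.74) for BSHlow and BSHhigh, and both changed sign in some alternatives.

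*Alox5* declined at both steps. It was at 7.13 to 10.1 CPM with BSHlow and 8.02 to 10.6 CPM with BSHhigh after 2 weeks. In non-tumor tissue it was at 2.89, 1.78, 2.18 and 2.84 CPM with BSHlow and at 3.0, 5.98, 2.24 and 2.10 CPM with BSHhigh, and in tumors at 1.28, 0.462, 0.811 and 1.56 CPM and at 1.40, 0.804 and 1.48 CPM. No pair of tissues overlapped within BSHlow or within BSHhigh, although BSHlow tumor replicate 4 (1.56 CPM) came close to BSHlow non-tumor replicate 2 (1.78 CPM). *Alox5* fell by 1.78 ± 0.30 and 1.41 ± 0.29 on the log2 scale from 2 to 12 weeks (adjusted p = 0.000175 and 0.000992 for BSHlow and BSHhigh). In tumors it fell by 1.24 ± 0.42 with BSHlow (adjusted p = 0.0191) and by 1.45 ± 0.46 with BSHhigh (adjusted p = 0.0156). The BSHhigh call was lost without BSHhigh non-tumor replicate 2 (-1.004, adjusted p = 0.0610) or BSHhigh tumor replicate b (-1.21, adjusted p = 0.0683), and both tumor calls were lost with epithelial scaling (-0.32 and -0.82, adjusted p = 0.573 and 0.205). Leukocytes also express *Alox5*, and the summed level of 8 leukocyte genes was between 51.96 and 285 CPM in non-tumor tissue and between 94.7 and 523 CPM in tumors.

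*Il25* and *Gfi1b* were near the limit of detection, and counts rather than fold changes describe them. *Il25* had 4, 2, 6 and 7 counts with BSHlow and 9, 3, 3 and 5 with BSHhigh after 2 weeks. In non-tumor tissue it had 0, 0, 3 and 3 counts and 5, 2, 4 and 0 counts, and in the 7 tumors it had 0 counts. With a floor of 3 counts over the group, it was at least 2.66-fold lower in BSHlow tumors and at least 3.71-fold lower in BSHhigh tumors than in non-tumor tissue. The 2-week level was 3.88 times the non-tumor level with BSHlow (95% exact interval 1.49 to 11.9) and 2.23 times with BSHhigh (1.02 to 5.15). These intervals and floors cover counting error only.

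*Gfi1b* had 5 to 15 counts per library after 2 weeks, 0 to 14 in non-tumor tissue and 0 to 2 in tumors. Summed over libraries it had 29 counts in BSHlow non-tumor tissue against 4 in BSHlow tumors, a ratio of 9.64 after scaling (95% exact interval 3.39 to 37.8), and 24 against 3 with BSHhigh, a ratio of 8.10 (2.46 to 42.0). These intervals too cover counting error only, not the spread between libraries. The BSHhigh groups overlapped because non-tumor replicate 4 held 0 counts. With all libraries in, the filter on low counts removed *Il25* from every comparison and *Gfi1b* from all but that of 2 with 12 weeks. With no filter *Gfi1b* had a log2 fold change of -3.11 in BSHlow tumors (adjusted p = 0.0131) and of -2.79 in BSHhigh tumors (adjusted p = 0.0520). Between 2 and 12 weeks its log2 fold changes were -0.68 (95% interval -2.09 to 0.72) and -0.83 (-2.27 to 0.60) with BSHlow and BSHhigh. Erythroid and megakaryocytic cells express *Gfi1b* too. Of 7 of their marker genes tested 6 were called higher in BSHlow tumors (16.7% of all genes were) and 1 in BSHhigh tumors (14.6%). The sum of their 8 listed genes was between 99.5 and 1789 CPM in non-tumor tissue and between 209 and 2654 CPM in tumors, and its part in the *Gfi1b* counts was not tested.

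Counted together, 6 of the 8 genes entered the tumor comparisons and 7 the comparison of 2 with 12 weeks. In BSHlow tumors 3 were called lower (*Dclk1*, *Trpm5*, *Alox5*), where 19.5% of 16454 genes were, and *Avil* was called higher, where 16.7% were. In BSHhigh tumors 2 were called lower (*Trpm5*, *Alox5*; 14.8% of all genes) and *Avil* higher (14.6%). From 2 to 12 weeks 5 were called lower with BSHlow and the same 5 with BSHhigh (*Trpm5*, *Pou2f3*, *Avil*, *Sh2d6*, *Alox5*), where 8.06% and 7.56% of 15532 genes were. The median log2 fold change over the genes tested was -1.52 and -1.88 from 2 to 12 weeks, against 0.00032 and 0.03 over all genes. In tumors it was -0.76 and -0.70 against 0.04 and 0.04. Both comparisons within a colonization used the same non-tumor libraries. The 12-week mice were also older and longer on HFD than the 2-week mice, and colonization time, age, diet time and the tissue piece taken cannot be told apart.

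Scaling moved these values as a block. With counts left at their totals the median of all genes moved by 0.33 and 0.30 on the log2 scale in BSHlow and BSHhigh tumors, and 61.4% and 66.2% of all calls were higher in place of 46.2% and 49.6%. With epithelial scaling the shift was 0.80 and 0.64, and 78.3% and 79.7% of calls were higher. From 2 to 12 weeks epithelial scaling shifted the median by 0.35 and 0.53, and 81.1% and 86.3% of calls were higher in place of 67.8% and 69.0%. Under each of these scalings *Avil* stayed called higher in tumors, and *Trpm5*, *Dclk1* and *Alox5* kept a negative sign there.

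**Figure D2:**
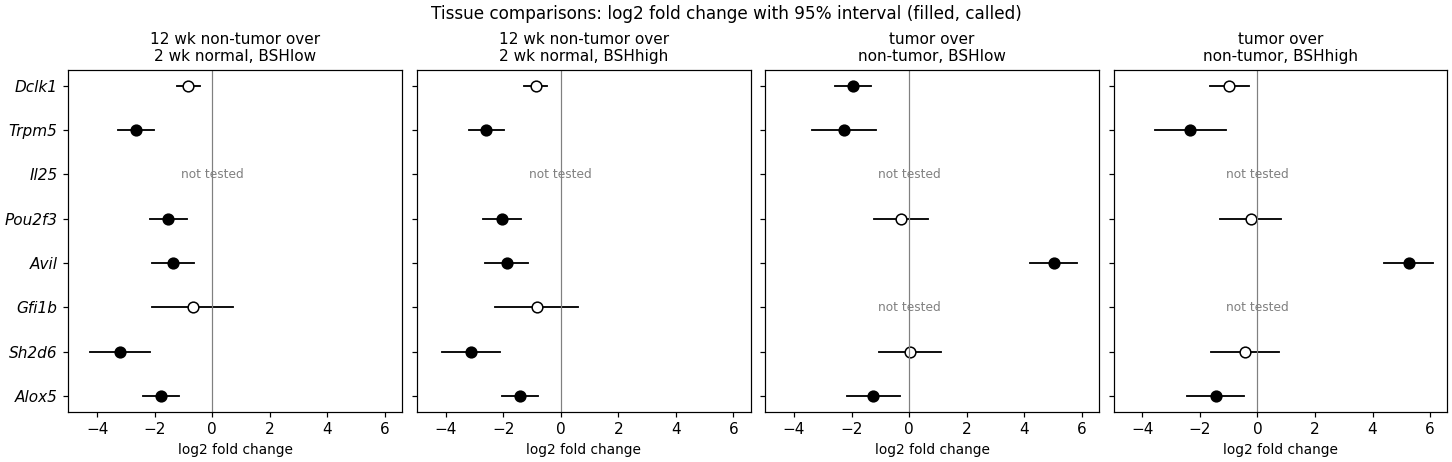
Log2 fold change of the tuft cell genes in the 4 tissue comparisons, with 95% intervals as lines and called genes as filled points. From 2 to 12 weeks the points lie between -3.20 and -0.68. In tumors *Avil* lies at 5.02 and 5.25 and *Trpm5* at -2.25 and -2.33.

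The comparison of BF BSHhigh with BF BSHlow asks whether the bile salt hydrolase of the colonizing strain bore on these genes. In tumors 0 of 6 genes were called (0.476% of 15325 genes were), in non-tumor tissue 0 of 6 (0% of 14933) and after 2 weeks 0 of 6 (0.00727% of 13752). DESeq2, the likelihood-ratio test of edgeR and limma-voom also called 0 in each. At an unadjusted p under 0.05 the quasi-likelihood test gave 1 gene in tumors and 0 in each of the other tissues. That gene was *Dclk1*, whose mean was 8.09 ± 2.17 CPM (n = 3) in BSHhigh tumors and 4.58 ± 2.14 CPM (n = 4) in BSHlow tumors. BSHlow tumor replicate 3 (7.78 CPM) lay above BSHhigh tumor replicates a and b, so the groups overlapped. The log2 fold change was 0.81 ± 0.35 (95% interval 0.01 to 1.62, unadjusted p = 0.0487, adjusted p = 0.388), and ranged from 0.56 to 1.19 with single libraries removed.

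The precision of these comparisons differed between tissues. After 2 weeks the widest interval was that of *Sh2d6* (log2 fold change 0.19, 95% interval -0.50 to 0.88) and the narrowest that of *Dclk1* (-0.13, -0.44 to 0.18). In non-tumor tissue *Avil* had a log2 fold change of -0.52 (-1.496 to 0.46), or 0.09 without BSHlow non-tumor replicate 4, and *Alox5* of 0.46 (-0.38 to 1.29). In tumors *Trpm5* had 0.04 (-1.48 to 1.57), *Avil* -0.31 (-0.75 to 0.14), *Pou2f3* -0.55 (-1.87 to 0.77), *Sh2d6* -0.24 (-1.13 to 0.65) and *Alox5* 0.23 (-0.87 to 1.34). In tumors a log2 fold change of 1 lay within the intervals of *Dclk1* (0.01 to 1.62), *Trpm5* and *Alox5*. One of -1 lay within those of *Trpm5*, *Pou2f3* and *Sh2d6*. Without BSHlow tumor replicate 4 the *Trpm5* value was 0.84 (adjusted p = 0.546), and with other single libraries removed it was as low as -0.25. *Il25* had 0 counts in each tumor of both groups.

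The effect of tissue did not pass a test of difference between BSHlow and BSHhigh for any gene. For the tumor step 0 of 6 genes were called (0.978% of 16454 genes were), and for the step from 2 to 12 weeks 0 of 7 (0% of 15532). At an unadjusted p under 0.05 there was 1 gene for the tumor step, *Dclk1*, and 0 for the time step, and the 3 other tools called 0 in both. The interval of the difference was -1.69 to 1.53 for *Trpm5* and -0.84 to 1.30 for *Avil* in tumors.

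**Figure D3:**
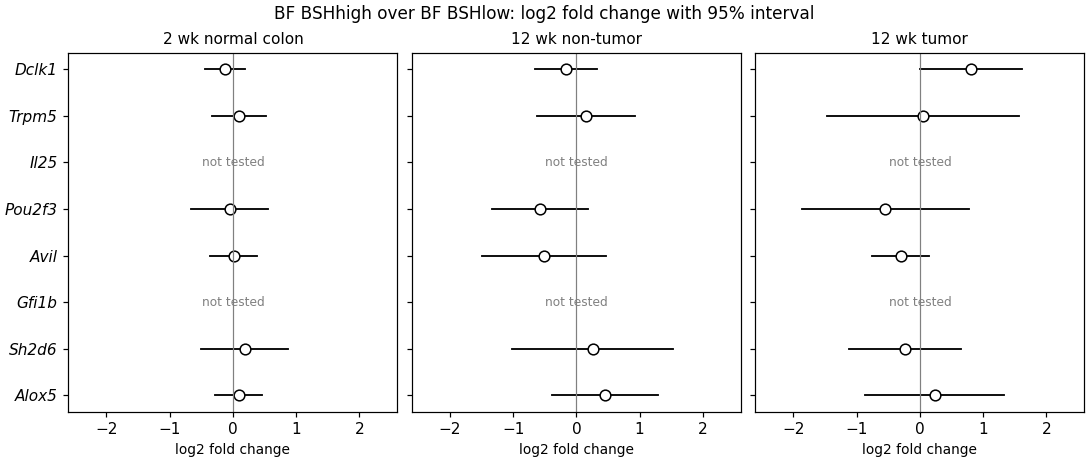
Log2 fold change of BF BSHhigh over BF BSHlow for each tuft cell gene in the 3 tissues, with 95% intervals as lines and open points because none was called. All but 1 interval cross 0, the exception being *Dclk1* in tumors (0.01 to 1.62).

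The same non-tumor and tumor libraries were read for other genes of tuft cells. Beside the counts of each list, 19.5% of all genes were called lower and 16.7% higher with BSHlow, and 14.8% and 14.6% with BSHhigh. In lists this short, 1 call can lie near these shares. Of 8 genes of taste signalling and receptors, 5 were tested in tumors, and 3 were called lower and 0 higher with BSHlow and with BSHhigh. *Gnat3*, the G-protein subunit gustducin, fell by 4.86 ± 0.88 and 4.27 ± 0.90 on the log2 scale (adjusted p = 0.000243 and 0.00111), from means of 0.902 and 1.04 CPM in non-tumor tissue to 2 and 3 counts in all over the tumors. The ratio of non-tumor tissue to tumor in scaled counts was 35.9 (95% exact interval of counting error 9.47 to 304) and 22.3 (7.30 to 111). *Ffar3*, a receptor for short-chain fatty acids, fell by 3.44 and 2.39 (adjusted p = 0.00208 and 0.0346). *Plcb2*, the phospholipase between receptor and channel, was at 4.0 and 3.72 CPM in non-tumor tissue and 2.30 and 3.19 CPM in tumors, which did not pass the test (-0.80 and -0.23, adjusted p = 0.104 and 0.682).

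Of the 5 genes of eicosanoid and acetylcholine synthesis, 2 were called lower in each tumor comparison and 1 higher with BSHlow. *Chat*, choline acetyltransferase, fell by 2.71 ± 0.76 with BSHlow on the log2 scale (adjusted p = 0.00605) and fell by 4.42 with BSHhigh (adjusted p = 0.00186). The BSHhigh value rests on 1 count in all over the 3 tumors against 30 in non-tumor tissue, a ratio of 30.4 in scaled counts whose interval of counting error runs from 5.05 to 1239. With BSHlow the counts were 5 against 27, a ratio of 7.18 (2.73 to 23.9). *Ltc4s*, leukotriene C4 synthase, which acts after *Alox5*, fell by 1.35 and 2.50 (adjusted p = 0.0150 and 0.000849). *Alox5ap*, which presents arachidonic acid to ALOX5, had log2 fold changes of 0.57 and 0.91 (adjusted p = 0.221 and 0.0771), with means of 5.12 and 5.77 CPM in non-tumor tissue and 7.64 and 10.9 CPM in tumors.

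Of 7 transcription genes 3 were tested, and 2 were called higher and 1 lower with BSHlow and with BSHhigh. *Spib*, which is also a B cell gene, fell by 4.91 ± 0.71 and 3.40 ± 0.71 on the log2 scale (adjusted p = 3.06e-05 and 0.00108), as did the B cell gene *Cd79a* among the leukocyte genes (by 6.27 and 4.24). Of the 8 leukocyte genes 3 were called higher and 2 lower with BSHlow, and 1 higher and 1 lower with BSHhigh. *Ascl2*, a Wnt target and intestinal stem cell factor, rose by 2.20 ± 0.28 and 3.09 ± 0.31 (adjusted p = 9.99e-06 and 2.36e-06). The other gene called higher, *Colca2*, rose by 1.30 ± 0.35 and 1.95 ± 0.38 (adjusted p = 0.00463 and 0.000570). Of 13 signalling and surface genes 12 were tested in tumors, and 6 were called lower with BSHlow and 5 with BSHhigh, with 0 higher. *Rgs13*, a regulator of G-protein signalling, fell by 2.94 ± 0.55 and 2.84 ± 0.61 (adjusted p = 0.000304 and 0.00126), from 3.12 and 3.11 CPM to 0.404 and 0.430 CPM. *Lrmp*, which lymphocytes also express, fell by 4.36 and 2.14 (adjusted p = 3.11e-07 and 0.000267). *Il17rb*, which encodes a receptor subunit for IL-25, was at 1.71 and 1.5 CPM in non-tumor tissue and 1.93 and 1.5 CPM in tumors (log2 fold change 0.16 and -0.01).

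The type 2 circuit around tuft cells gave 3 called higher and 2 lower of 11 tested in BSHlow tumors, and 3 and 1 in BSHhigh tumors. Over all genes 16.7% were called higher and 19.5% lower with BSHlow, and 14.6% and 14.8% with BSHhigh, so that the share of this list called lower was near or under that of all genes. *Il33*, an epithelial and stromal alarmin, rose by 2.91 ± 0.33 and 2.61 ± 0.34 on the log2 scale (adjusted p = 3.71e-06 and 2.31e-05), from means of 5.55 and 7.32 CPM to 42.2 and 44.7 CPM. *Il1rl1*, its receptor, rose by 5.45 ± 0.78 and 5.13 ± 0.79 (adjusted p = 2.79e-05 and 9.04e-05), to 350.0 and 213 CPM. Mast cells also express *Il1rl1*, and of 8 mast cell genes 4 were called higher and 1 lower with BSHlow (median 2.47) and 2 higher and 1 lower with BSHhigh (median 1.36). The mast cell sum was between 42.7 and 107 CPM in non-tumor tissue and between 42.6 and 250.4 CPM in tumors, and its part in the *Il1rl1* levels was not tested. *Il13*, the cytokine that expands tuft cells, had 1 count in all over the 8 non-tumor libraries, 4 counts in all over the 7 tumors and 0 after 2 weeks. *Retnlb*, a goblet cell antimicrobial protein, fell by 4.98 ± 1.34 in BSHlow tumors (adjusted p = 0.00468), and was the 1 gene of the tuft cell and type 2 lists called between BSHhigh and BSHlow tumors (14.3 against 0.186 CPM, log2 fold change 6.21 ± 0.89, adjusted p = 0.0406). Markers of differentiated epithelium moved in the same comparison: 2 of 8 goblet genes (*Fcgbp*, *Zg16*; median 3.76), 3 of 7 absorptive colonocyte genes tested (*Slc26a3*, *Aqp8*, *Saa1*; median 5.42) and 1 of 5 enteroendocrine genes tested (*Chga*; median 2.38) were called higher in BSHhigh tumors and 0 lower. In that comparison 0.476% of all genes were called in either direction.

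**Figure D4:**
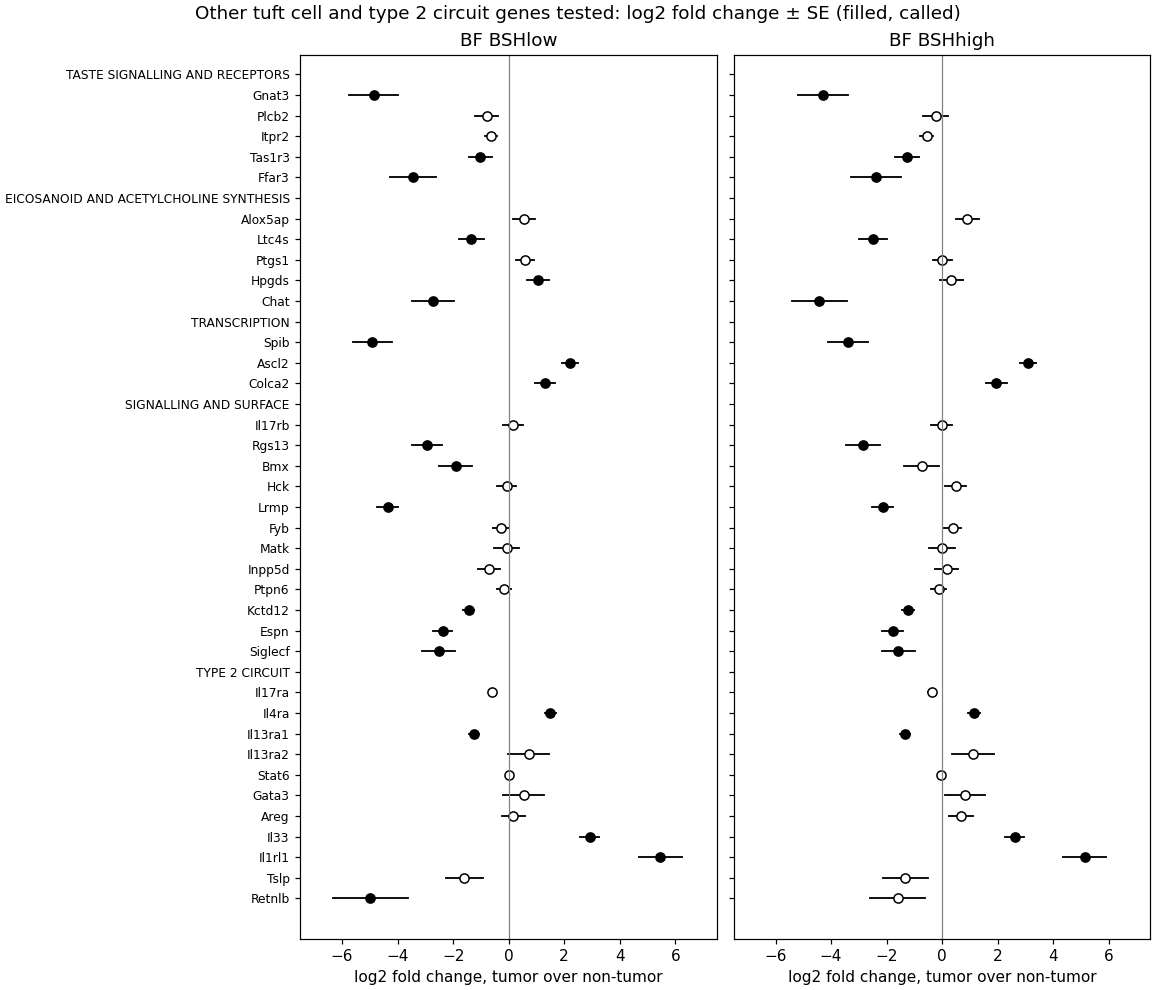
Log2 fold change of tumor over non-tumor tissue for the other tuft cell and type 2 circuit genes that were tested, with SE as lines and called genes as filled points. *Gnat3*, *Rgs13* and *Chat* lie to the left, and *Ascl2*, *Il33* and *Il1rl1* to the right with BSHlow and BSHhigh.

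From 2 to 12 weeks the lists of other tuft cell genes differed, beside 8.06% and 7.56% of all genes called lower with BSHlow and BSHhigh. Of 6 taste signalling and receptor genes tested 4 were called lower with BSHlow and with BSHhigh, and of 13 signalling and surface genes 8 were called lower and 2 higher (*Lrmp*, *Inpp5d*) with BSHlow, and 7 lower and 1 higher (*Lrmp*) with BSHhigh. Of 5 genes of eicosanoid and acetylcholine synthesis 1 was called lower (*Chat*) and 1 higher (*Alox5ap*) with BSHlow and 0 with BSHhigh, and the medians were 0.26 and 0.04. Of 4 transcription genes tested 1 was called lower with BSHlow and with BSHhigh. The largest fall of these tuft cell lists with BSHlow was that of *Sucnr1* (-4.96). Of 10 type 2 genes tested 3 were called higher (*Il13ra2*, *Il33*, *Il1rl1*) and 1 lower (*Retnlb*) with BSHlow. With BSHhigh 2 were called higher (*Il13ra2*, *Il33*) and 1 lower (*Retnlb*). Of all 15532 genes 2635 and 2611 were called higher. *Rgs13* fell by 2.67 and 2.79 on the log2 scale (adjusted p = 0.000530 and 0.000383) and *Gnat3* by 1.78 and 1.89 (adjusted p = 0.00607 and 0.00370). *Lrmp* rose by 2.34 and 2.07 (adjusted p = 1.24e-07 and 3.63e-07), and the B cell gene *Cd79a* rose by 3.56 and 2.41. Of 8 leukocyte genes 3 were called higher and 0 lower with BSHlow. With BSHhigh 6 were called higher and 1, the T cell gene *Cd3e*, lower. The part of leukocytes in the *Lrmp* levels was not tested. Of the 8 smooth muscle genes all 8 rose, with medians of 5.49 and 5.25.

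Other epithelial lineages were also lower in tumors, as the plot of marker lists shows. All 8 goblet genes were called lower with BSHlow and with BSHhigh, with medians of -6.33 and -3.23. Of 8 enteroendocrine genes 7 were called lower in each (medians -4.93 and -3.31), where 19.5% and 14.8% of all genes were. The sum of 8 absorptive colonocyte genes stepped down at both steps without overlap, as did that of the tuft cell genes other than *Avil*. The colonocyte sum went from between 13650 and 24260 CPM after 2 weeks to between 3679 and 10240 CPM in non-tumor tissue. In tumors it was between 54.8 and 1409 CPM. Of the 8 colonocyte genes 3 were called lower from 2 to 12 weeks with BSHlow and with BSHhigh, and 1 (*Saa1*) was called higher with BSHlow. Their median log2 fold changes were 0.14 and -0.54, so the step of the sum was not shared by all of them. From 2 to 12 weeks 1 of 8 goblet genes was called lower with BSHlow and 0 with BSHhigh, where 1 was called higher and 5 tuft cell genes were called lower. The summed level of the tuft cell genes other than *Avil* was between 74.7 and 116 CPM after 2 weeks, between 17.1 and 35.8 CPM in non-tumor tissue and between 5.18 and 15.6 CPM in tumors. *Dclk1* was its largest part in non-tumor tissue, with means of 17.6 and 15.8 CPM. The step of this sum into tumors was not shared by all its genes either. *Pou2f3* (-0.29 and -0.24) and *Sh2d6* (0.04 and -0.43) were not called there. With *Avil* included, the sum rose from between 20.05 and 46.41 CPM in non-tumor tissue to between 120.8 and 238.2 CPM in tumors.

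**Figure D5:**
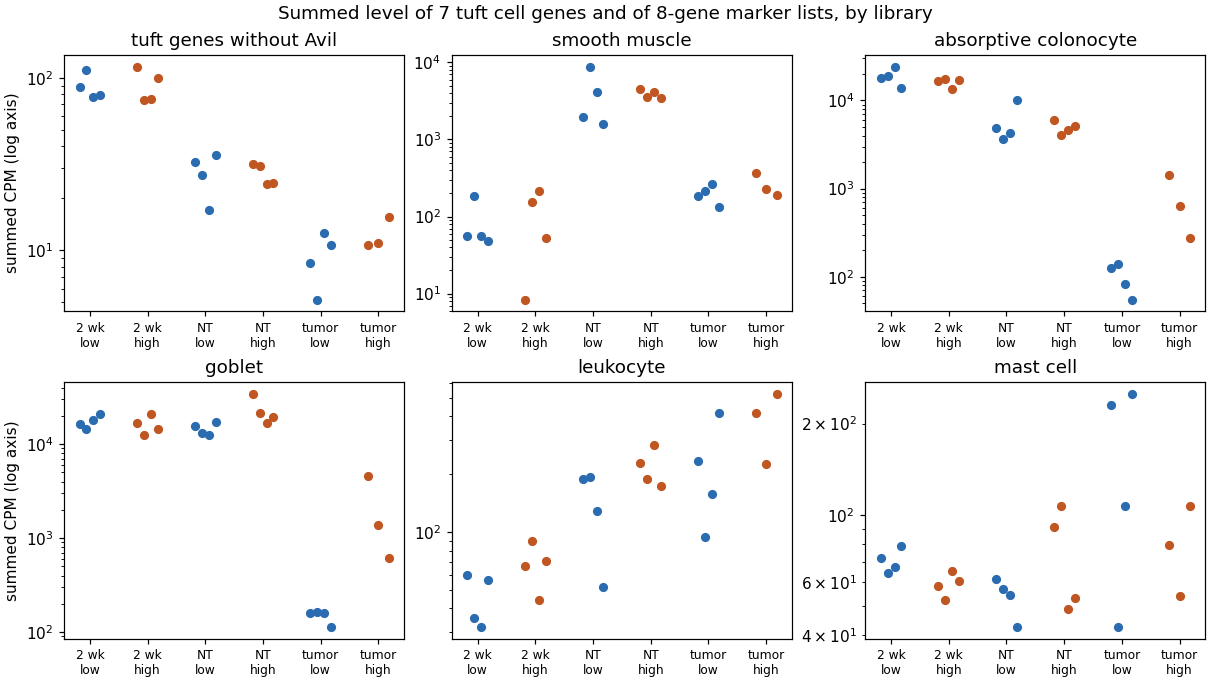
Summed CPM (log axis) of the tuft cell genes other than *Avil* and of 8-gene lists for 5 other cell types, with 1 point per library. The tuft cell sum without *Avil* and the absorptive colonocyte sum step down from 2 weeks to non-tumor tissue to tumor. The goblet sum is between 12440 and 34210 CPM in all tissue without tumor and at most 4559 CPM in tumors.

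Libraries of a group also varied together over some of these genes. In BSHlow non-tumor tissue, replicate 4 was the highest of 4 for *Trpm5*, *Pou2f3*, *Avil*, *Gfi1b* and *Sh2d6*. *Dclk1* was highest in replicate 2, *Alox5* in replicate 1 and *Il25* in replicate 3. Replicate 4 had the lowest smooth muscle sum (1582 CPM against 1938 to 8831 CPM) and the highest colonocyte sum of the 4 (10240 CPM against 3679 to 4809 CPM). With log2 CPM centred on each group's mean, over 23 libraries, *Pou2f3* and *Trpm5* had a Pearson r of 0.71, *Pou2f3* and *Sh2d6* of 0.67, and *Avil* and *Alox5* of 0.20. Over the 16 libraries without tumors, centred in the same way, *Trpm5* had an r of 0.82 with *Sh2d6*, 0.82 with *Pou2f3* and 0.79 with *Avil*. These were the highest pairs, and the lowest were *Alox5* with *Dclk1* (0.19), *Sh2d6* (0.29) and *Avil* (0.37). These values describe 23 libraries that share depth, dissection and tissue composition, and genes are not independent replicates.

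By the same centred profiles, the genes most like the mean of the 6 tuft cell genes with at least 1 CPM were looked for among 14395 genes. The 10 highest were *Cadm1* (r = 0.82), *Ffar3* (0.81), *Morn1* (0.81), *Slc35d2* (0.80), *Fads6* (0.77), *Hs3st3b1* (0.77), *Rgs13* (0.76), *Mycbpap* (0.75), *Tspan6* (0.75) and *Klhl26* (0.74). *Ffar3* and *Rgs13* were also on the lists of other tuft cell genes. Likeness within groups did not carry over to the tissues in each case: *Cadm1* had mean levels of 3.42 and 5.09 CPM after 2 weeks and 27.6 and 32.1 CPM in tumors.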

How the data were processed

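RNA of 23 mouse colon libraries was analysed. Per the labels and the methods of the study, reads were trimmed with cutadapt, aligned to mm10 with STAR (Picard is also named), and the authors deposited RSEM expected counts per gene, not normalized. Versions, and the strand setting of the counting, are not given in the sources used here. The labels name a total RNA kit and the methods an mRNA kit, both stranded. Of the values 4.24% were not whole, and 1 gene was left out because a cell held text. The expected counts of a library summed to between 12401388 and 17903008 (median 15874872). Gene identifiers matched GENCODE M21 (GRCm38) for 55449 genes. Expected counts were rounded and fitted in R 4.3.3 with edgeR 4.0.16 (TMM, filterByExpr, quasi-likelihood test, Benjamini-Hochberg adjustment over all genes). Tumor was compared with non-tumor tissue in the 15 libraries of 12 weeks, 12 with 2 weeks in the 16 without tumors, and BSHhigh with BSHlow in the groups compared. Levels are CPM with TMM over all libraries, and per-length levels divide by union exon length. Mice were colonized 2 times a week per the labels and every 3 days per the methods. The study calls the 12-week libraries independent samples under pooled sample sizes, and how they were pooled is not clear from it. Labels do not say which libraries come from the same mouse, so p-values measure the spread between libraries, part of which may be technical. No replicate pair was alike enough to be 1 library (chi-square per degree of freedom at least 16.6).

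The members and lists were chosen with earlier results of these data known. All 8 tuft cell genes are named. Other genes named are the called ones of the tuft cell and type 2 lists, largest first, up to 8 per tumor or BSH comparison. Named too are *Alox5ap*, *Il17rb*, *Plcb2* and *Il13* whatever their values, genes of marker lists where a result turns on them, and the 10 most alike genes. *Tsfm* was chosen for its overlap with *Avil* and *Tssc4* for its overlap with *Trpm5*. *Colca2* was named because it was the transcription gene called higher in tumors beside *Ascl2*. The genes named from the lists at 2 to 12 weeks and from the marker lists were chosen after their values were seen, and not by size. *Gm684* of the transcription list was not found in the table. The other settings tried were limma-voom (limma 3.58.1), DESeq2 1.42.0, edgeR's likelihood-ratio test, RLE, upper-quartile, total count and epithelial scaling, 2 other filters, other sets of libraries, a block for the replicate number, and fits with 1 library removed. The fits were tested on simulated data. Promoter windows are RefSeq, GRCm38.p6. Summaries were made in Python 3.11.15 with pandas 2.3.3, numpy 2.4.6 and scipy 1.17.1.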

Additional observations from a re-analysis of the deposited data

Results flagged for a closer look

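Within groups of 4 libraries, 39 sets of values of the tuft cell genes were screened for a library that stands apart, by Dixon's ratio of gap to range at the 95% level. Chance marks about 1 in 20 such sets, and 3 of 39 were marked here. *Dclk1* was 10.3 CPM in BSHlow non-tumor replicate 3, where the other libraries held 19.4 to 20.7 CPM. *Dclk1* was 7.78 CPM in BSHlow tumor replicate 3, where the others held 3.34 to 3.63 CPM. *Sh2d6* was 0.770 CPM in BSHlow tumor replicate 2, where the others held 1.86 to 1.96 CPM.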

How the results depend on the processing

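Over 1162 pairs of a gene's comparison and an alternative, 1150 kept the side of the threshold, 7 fell short of the call, 5 passed it and 0 reversed. A value called in neither setting counted as kept whatever its sign, and reversal was counted only where a value was called. In the BSH comparisons and the differences of effects 0 tuft cell genes were called in each alternative, which counted as kept. With these included, the number of tuft cell genes called was within 1.5 times the reported number in 182 of 184 alternatives. The exceptions were BSHlow tumors with epithelial gene scaling, with 2 called (*Dclk1*, *Avil*) in place of 4, and BSHhigh tumors without tumor replicate c, with 5 (*Gfi1b* and *Dclk1* added) in place of 3. Leaving out each library in turn gave 2 to 5 called in BSHhigh tumors and 4 in BSHlow tumors. With total count scaling *Alox5* in BSHlow tumors was -0.89 (adjusted p = 0.0784). With epithelial scaling *Alox5* from 2 to 12 weeks with BSHhigh was -0.90. *Dclk1* in BSHhigh tumors was called with DESeq2 and with RLE scaling (both -1.03). The cause was not tested. Over all genes, counts of calls moved by more than 1.5 times with the tool. Between BSHhigh and BSHlow tumors 71 higher and 2 lower were called, against 489 and 45 with DESeq2, 504 and 39 with the likelihood-ratio test, 40 and 1 with limma-voom, 277 and 9 with epithelial scaling and 308 and 12 with no filter. In non-tumor tissue 0 were called, against 39 and 14 with DESeq2 and 30 and 10 with the likelihood-ratio test. After 2 weeks 1 was called higher, against 20 and 8, 20 and 11, 4 and 1 with no filter and 0 with epithelial scaling. For the difference of tumor effects 160 and 1 were called, against 378 and 8, 435 and 10, and 0 with limma-voom, and for that of time effects 0, against 14 and 8, and 17 and 9. Depth limited *Il25* and *Gfi1b*, which had at most 15 counts in any library.

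Whether replicate numbers in the labels pair the libraries was not settled. Deviations from group means of same-numbered libraries had r between -0.173 and 0.26, and 5 of 20 libraries were most like their own number. Most of these pairs joined different colonizations or times, which cannot share a mouse. Between BSHlow non-tumor tissue and BSHlow tumors, replicates 1 and 4 were most like their own number (r = 0.158 and 0.106). Replicates 2 and 3 were not (r = -0.0835 and 0.0176). With the replicate block, the count of tuft cell genes called was 4 in BSHlow tumors, 5 from 2 to 12 weeks with BSHlow and with BSHhigh, and 0 between BSHhigh and BSHlow in non-tumor tissue and after 2 weeks, as without it. The block was not run for BSHhigh tumors, whose columns carry no numbers.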
